A study of Mus musculus with 11 samples.

Results

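The genes described here are the 43 listed genes of the unfolded protein response, the heat shock response and the amino acid stress response, followed in B cells of the mouse spleen. A listed gene was taken as measured when the platform annotation of the Affymetrix mouse array named it, alone, for at least 1 probe set. By that rule 42 of the 43 were measured, through 98 probe sets, among 18193 genes measured in all; Hsp90ab1 was not analysed here. The measured genes comprise 8 of the amino acid and integrated stress response, 3 sensors of the endoplasmic reticulum (ER), 14 ER chaperones and folding or degradation factors, 10 heat shock proteins of the cytosol and mitochondria, and 7 genes of serine, one-carbon and amino acid supply. The list groups genes by function and uses no measured value, but it was drawn up with earlier results of these data known.

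The 11 arrays fall into 4 groups: unstimulated NOD (3 arrays), anti-IgM NOD (2), unstimulated NR4 (3) and anti-IgM NR4 (3). NOD (NOD/ShiLtJ) is an inbred strain prone to autoimmune diabetes, and NR4 (NOD.NOR-Chr4/DvsJ) mice carry a chromosome 4 segment of the NOR strain on the NOD background. All cells came from females aged 6 weeks, in lots pooled from 7 to 8 spleens, and were isolated by magnetic removal of other cells. All of them, the unstimulated ones included, were kept 2 h in culture medium, either alone or with 10 µg/ml of goat F(ab')2 fragments that bind mouse IgM and cross-link the B cell receptor. Each array therefore represents a pool of animals. There were 3 lots per strain, fewer than its arrays, so some arrays of a strain share a lot, and no label says which. No group of uncultured cells was measured.

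Unfolded proteins in the ER are sensed by 3 membrane proteins, ATF6, IRE1 (gene Ern1) and PERK (gene Eif2ak3), which raise chaperone and degradation genes and slow protein synthesis. PERK and other kinases, among them the sensor of amino acid shortage, phosphorylate the initiation factor eIF2; translation of ATF4 then rises, and ATF4 activates genes of amino acid synthesis and import. Heat shock factors form a separate branch that raises cytosolic and mitochondrial chaperones. B cells are known to enlarge their ER when they become plasma cells, and naive B cells are small cells with little of it.

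Values are log2 signals centred on the median of each probe set over the 11 arrays, so a value of 0 is a probe set's own midpoint and differences between arrays can be read while levels cannot. For the same reason the B cell identity of the samples cannot be checked by level. Of 8 measured B cell markers 5 fell after anti-IgM, by 0.47 to 0.99 log2 units. Among 47 measured markers of other cell types, Irf4 of the plasma cell list rose by 0.79 (SE 0.07), Itgax rose by 0.50 (SE 0.08) and Pecam1 fell by 0.97 (SE 0.17). The 3' probe sets of the actin and Gapdh control transcripts exceeded the 5' ones by 0.96 log2 units in anti-IgM NR4 replicate 1, against 0.04 and 0.23 in the other stimulated NR4 arrays and -0.05, -0.07 and 0.29 in the unstimulated ones. In NOD the difference was 0.21 and 0.13 in stimulated and -0.01, -0.04 and -0.08 in unstimulated cells, so it moved with stimulation there without overlap. The control pairs of pyruvate carboxylase and the transferrin receptor did not follow. They were at -0.268 and -0.478 in anti-IgM NR4 replicate 1, and in NOD they overlapped between conditions. The part of these RNA measures in the responses was not tested. Values without anti-IgM NR4 replicate 1 are given for several genes whose difference that array moved. They are not given for Sdf2l1, in which that array was the highest.

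The first comparison asked how the stress genes respond to 2 h of receptor cross-linking. Averaged over both strains, 5 of the 42 genes rose, 0 fell and 37 did not pass (limma, Benjamini-Hochberg adjusted p below 0.05). Over all 18193 genes 0.715% rose and 0.841% fell by the same test. The genes that rose were Slc3a2, Ppp1r15a, Hspd1, Atf4 and Dnajb9, at least 1 in each role group except the ER sensors. The increases were small, from 0.32 log2 units (1.25-fold) for Atf4 and Dnajb9 to 0.77 (1.71-fold) for Ppp1r15a. The median difference of the 42 genes was 0.13 and that of all genes 0.00, and 33 of the 42 differences were positive, against 51% of all genes. An unadjusted p under 0.05 was reached by 11 of the 42 genes and by 11.4% of all genes. When the replicate number entered the model as a block, 6 genes rose, the 5 and Mthfd2, where 1.25% of all genes did. No label says that arrays with the same number share a lot of spleens, and anti-IgM NOD replicate 2 deviated more with the arrays numbered 3. With the replicate number within strain as a random block 7 rose, Hspa5 among them (1.61% of all genes). In 8 genes the stimulated arrays lay above the unstimulated ones in both strains without overlap, a pattern of 2.08% of all genes. The other 3, besides the 5 that passed the test, were Hspa5, Eif2ak3 and Mthfd2. Ddit4 alone showed the opposite separation, which 3.56% of all genes show.

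**Figure D1:**
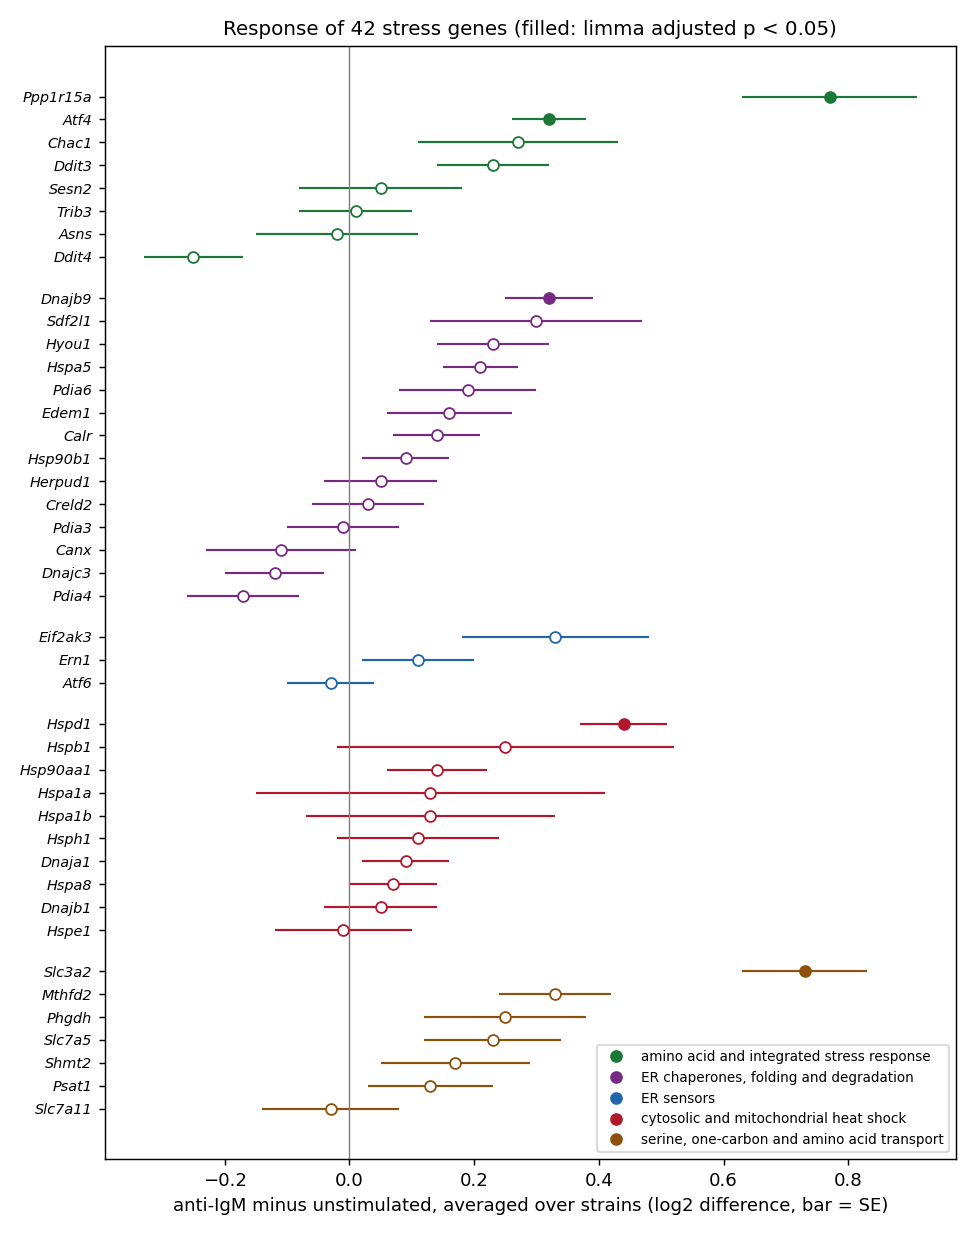
Difference between anti-IgM and unstimulated cells, averaged over NOD and NR4, for the 42 measured genes in their 5 role groups (x axis, log2 units; points are limma estimates from all 11 arrays and bars are their SE; filled points passed at an adjusted p below 0.05). The 5 filled points lie between 0.32 and 0.77, and the open points lie between -0.25 and 0.33.

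Slc3a2 on chromosome 19 encodes the heavy chain CD98hc, which carries several amino acid transporters to the cell surface. In unstimulated NOD cells its centred log2 signal was -0.02, -0.40 and -0.07, and in stimulated NOD cells 0.56 and 0.57. In NR4 it was -0.26, -0.31 and 0.00 unstimulated and 0.76, 0.37 and 0.53 stimulated. Every stimulated array lay above every unstimulated one. The gene rose by 0.73 log2 units (SE 0.10, 1.66-fold, limma adjusted p = 0.0094), by 0.73 in NOD and 0.74 in NR4.

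Its light chain partners did not pass. Slc7a5, which pairs with CD98hc to import leucine and other large neutral amino acids, differed by 0.23 (SE 0.11, limma adjusted p = 0.47). Its highest array was anti-IgM NR4 replicate 1 at 0.61, and the other stimulated arrays ranged from 0.00 to 0.20. Slc7a11, the cystine carrier that uses the same heavy chain, differed by -0.03 (SE 0.11). The differences of the 3 genes were not tested against each other, and each of Slc3a2 and Slc7a5 rests on 1 probe set.

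Among the enzymes of this group, Mthfd2, the mitochondrial folate enzyme of one-carbon metabolism, came nearest to the threshold. Its values in NR4 were -0.12, -0.31 and -0.30 unstimulated and 0.48, 0.05 and 0.33 stimulated. In NOD they were -0.01, -0.15 and -0.02 unstimulated and 0.14 and 0.00 stimulated. Stimulated arrays were thus above unstimulated ones in each strain, by a narrow margin in NOD. The averaged difference was 0.33 (SE 0.09, limma adjusted p = 0.12), and with the replicate number as a block it passed (limma adjusted p = 0.039). Both of its probe sets were higher, by 0.38 and 0.28. Phgdh, Shmt2 and Psat1, which make serine and convert it to glycine, differed by 0.25 (SE 0.13), 0.17 (SE 0.12) and 0.13 (SE 0.10) and did not pass.

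Ppp1r15a on chromosome 7 encodes GADD34, the phosphatase subunit that reverses eIF2 phosphorylation. Its values in NOD were 0.00, -0.48 and -0.45 unstimulated and 0.40 and 0.30 stimulated. In NR4 they were -0.32, -0.39 and -0.72 unstimulated and 0.75, 0.14 and 0.33 stimulated. No stimulated array fell to the level of an unstimulated one. The gene rose by 0.77 (SE 0.14, limma adjusted p = 0.023), with 0.66 in NOD and 0.88 in NR4, and it rests on 1 probe set.

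Atf4 on chromosome 15, the transcription factor at the centre of the amino acid response, had values of -0.17, -0.08 and -0.08 in unstimulated NOD and 0.18 and 0.17 in stimulated NOD cells. In NR4 they were -0.15, -0.14 and -0.28 against 0.20, 0.13 and 0.15. The groups did not overlap and each was tight, with SDs of 0.01 to 0.07. The gene rose by 0.32 (SE 0.06, limma adjusted p = 0.029). None of its 3 probe sets passed alone: they differed by 0.30 (SE 0.09), 0.27 (SE 0.07) and 0.15 (SE 0.29). Because the median is taken array by array, the value of the gene exceeded that of each probe set. With the mean of the probe sets in place of the median Atf4 did not pass (0.24, SE 0.09, limma adjusted p = 0.33).

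The other 6 genes of the amino acid and integrated stress group did not pass. Asns, asparagine synthetase, differed by -0.02 (SE 0.13), Trib3, a pseudokinase, by 0.01 (SE 0.09) and Sesn2, which restrains mTORC1, by 0.05 (SE 0.13). Ddit3, which encodes the factor CHOP, differed by 0.23 (SE 0.09, limma adjusted p = 0.34). Chac1, a glutathione-degrading enzyme, differed by 0.27 (SE 0.16) and is described below with the strains. Ddit4, an inhibitor of mTORC1, was at 0.01, 0.05 and 0.12 in unstimulated NOD and 0.00, 0.06 and 0.19 in unstimulated NR4 cells. It was at -0.37 and -0.01 in stimulated NOD and -0.18, -0.24 and -0.09 in stimulated NR4 cells. All 5 stimulated arrays were lower than the unstimulated ones, yet the difference of -0.25 (SE 0.08) did not pass (limma adjusted p = 0.22).

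**Figure D2:**
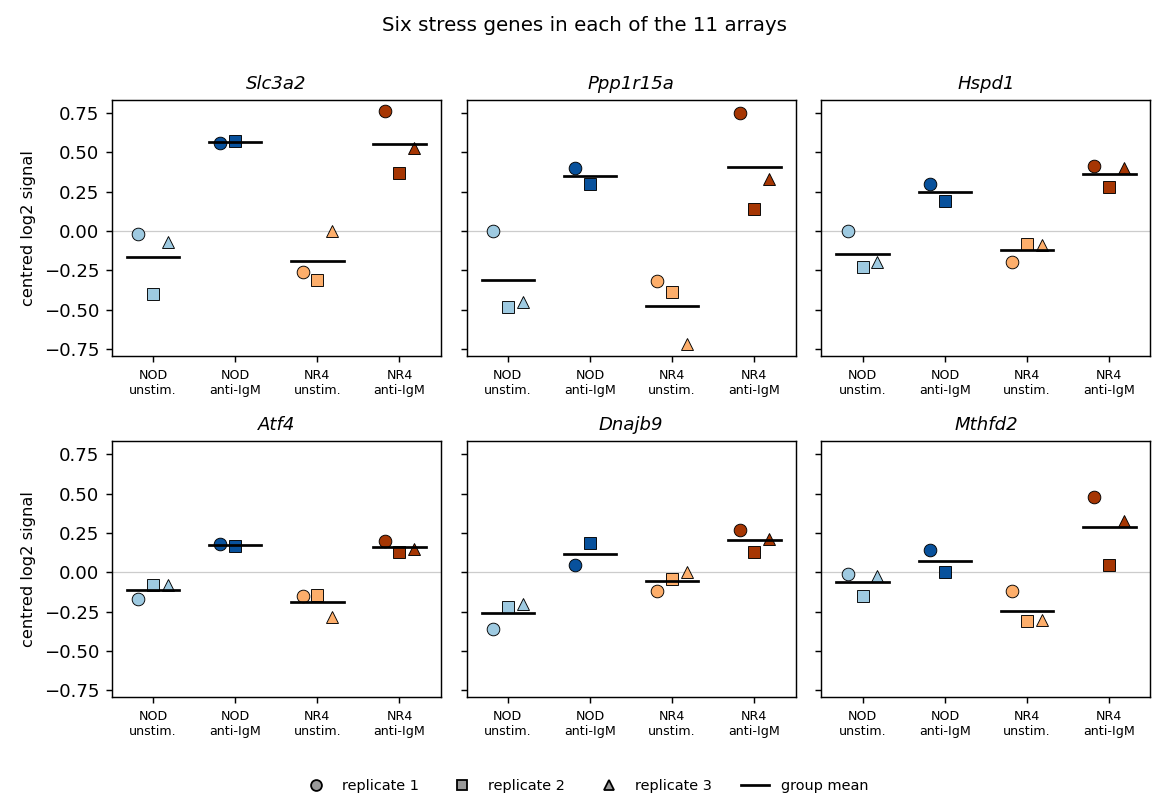
Centred log2 signal (y axis) of Slc3a2, Ppp1r15a, Hspd1, Atf4, Dnajb9 and Mthfd2 in each array of the 4 groups (x axis; marker shape gives the replicate number and the line the group mean). In all 6 genes the stimulated arrays lie above the unstimulated arrays of the same strain; the first 5 genes passed the averaged test and Mthfd2 did not (0.33, SE 0.09).

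Among ER chaperones and related factors 1 of 14 rose, 0 fell and 13 did not pass. The gene was Dnajb9 on chromosome 12, which encodes ERdj4, a co-chaperone of BiP. Its values in NOD were -0.36, -0.22 and -0.20 unstimulated and 0.05 and 0.19 stimulated, and in NR4 -0.12, -0.04 and 0.00 unstimulated and 0.27, 0.13 and 0.21 stimulated. The stimulated arrays all lay higher. The increase of 0.32 (SE 0.07) was just inside the threshold (limma adjusted p = 0.049), and after quantile normalization of the deposited values it was just outside (0.36, limma adjusted p = 0.053).

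Hspa5, which encodes BiP, the main ER chaperone, was at -0.14, -0.09 and 0.00 in unstimulated NOD and 0.12 and 0.17 in stimulated NOD cells. In NR4 it was at -0.09, -0.04 and 0.00 unstimulated and 0.07, 0.22 and 0.21 stimulated. The arrays separated, but the difference of 0.21 (SE 0.06) did not pass (limma adjusted p = 0.16). Its 3 probe sets gave 0.24, 0.23 and 0.21. Hyou1, another chaperone of the ER lumen, differed by 0.23 (SE 0.09, limma adjusted p = 0.29), Calr, calreticulin, by 0.14 (SE 0.07) and Hsp90b1, the ER form of HSP90, by 0.09 (SE 0.07).

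None of the disulfide isomerases passed, and their differences had both signs: Pdia6 differed by 0.19 (SE 0.11), Pdia3 by -0.01 (SE 0.09) and Pdia4 by -0.17 (SE 0.09). Edem1, which directs misfolded glycoproteins to degradation, had probe sets at 0.37 (SE 0.11) and -0.04 (SE 0.13). Dnajc3, a co-chaperone also known as an inhibitor of PERK, had 5 probe sets from -0.50 to 0.07 and a value of -0.12 (SE 0.08). Canx, calnexin, differed by -0.11 (SE 0.12), and its lowest array was anti-IgM NR4 replicate 1 at -0.61; without that array the difference was 0.00 (SE 0.07). Herpud1 and Creld2 differed by 0.05 and 0.03 (SE 0.09 each). Sdf2l1, an ER co-chaperone component, differed by 0.30 (SE 0.17, limma adjusted p = 0.63), and its highest array was anti-IgM NR4 replicate 1 at 0.88.

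The 3 sensors did not pass. Eif2ak3 was at 0.05, -0.39 and -0.06 in unstimulated NOD and 0.24 and 0.08 in stimulated NOD cells. In NR4 it was at -0.06, -0.33 and -0.06 against 0.68, -0.04 and 0.00. Stimulated arrays were the higher in each strain, by a margin of 0.02 in NR4. The highest array was anti-IgM NR4 replicate 1. The difference was 0.33 (SE 0.15, limma adjusted p = 0.42). Without that array it was 0.21 (SE 0.10) and did not pass either. Probe sets of this gene disagreed, at 0.46 (SE 0.19), 0.40 (SE 0.16) and -0.04 (SE 0.07). Ern1 was at -0.02, -0.17 and -0.10 against 0.04 and -0.04 in NOD, and at 0.12, 0.00 and -0.14 against 0.06, 0.36 and -0.04 in NR4. Its groups overlapped, and it differed by 0.11 (SE 0.09, limma adjusted p = 0.80), while Atf6 differed by -0.03 (SE 0.07).

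**Figure D3:**
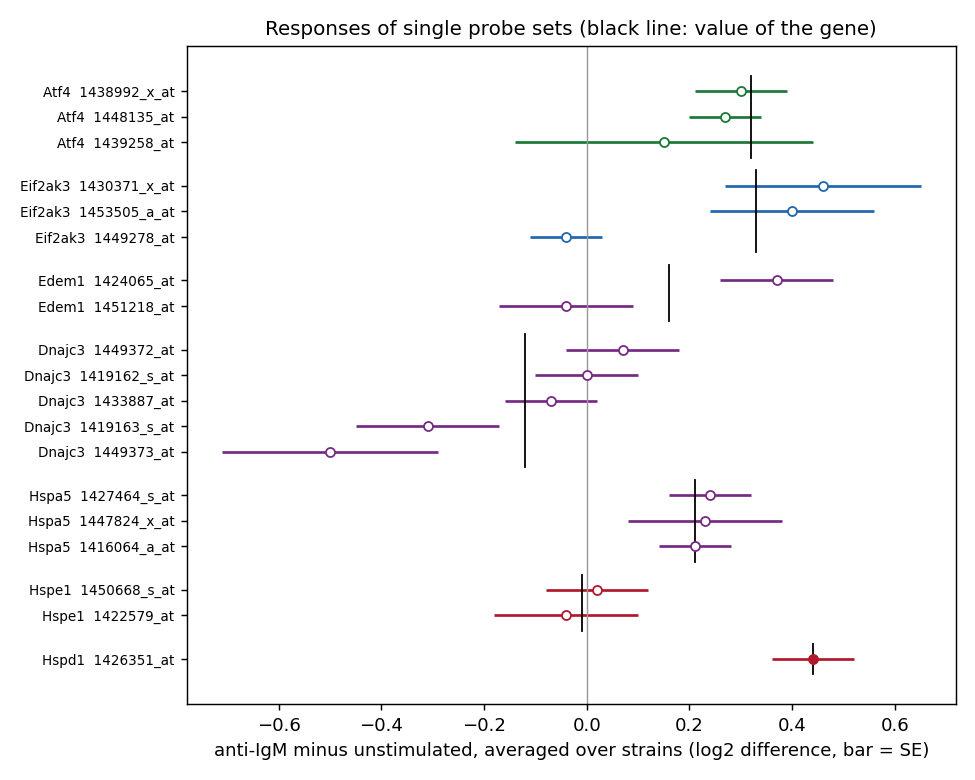
Averaged response of each probe set of 7 genes (x axis, log2 difference with SE from a fit of all probe sets; filled points passed at an adjusted p below 0.05), with the value of the gene as a black line. The probe sets of Hspa5 lie together between 0.21 and 0.24, while those of Eif2ak3 run from -0.04 to 0.46 and those of Dnajc3 from -0.50 to 0.07.

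Of the 32 genes with several probe sets, 20 had all of them positive, 2 all negative and 10 had both signs; in 0 of the 10 did probe sets of opposite sign each reach an unadjusted p under 0.05. Fitted one by one, the probe sets of Slc3a2, Hspd1 and Ppp1r15a passed. These 3 genes have 1 probe set each.

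In the heat shock group 1 of 10 rose, 0 fell and 9 did not pass. Hspd1 on chromosome 1 encodes HSP60, the chaperonin of the mitochondrial matrix. Its values in NOD were 0.00, -0.23 and -0.20 unstimulated and 0.30 and 0.19 stimulated, and in NR4 -0.20, -0.08 and -0.09 unstimulated and 0.41, 0.28 and 0.40 stimulated. Every stimulated array lay above every unstimulated one, and the gene rose by 0.44 (SE 0.07, 1.36-fold, limma adjusted p = 0.016).

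Hspe1 encodes HSP10, the lid of the HSP60 chamber, and lies head to head with Hspd1 on the opposite strand. RefSeq gives Hspd1 a pair of starts, 1 of them 216 bases upstream of the Hspe1 start and the other downstream of it, inside Hspe1, where the transcripts overlap. Its value did not follow that of Hspd1. Hspe1 was at 0.00, -0.11 and -0.10 in unstimulated NOD and 0.08 and -0.08 in stimulated NOD cells, and at 0.00, 0.06 and -0.01 against -0.49, 0.13 and 0.13 in NR4. The groups overlapped in NOD, and in NR4 the array with the raised actin and Gapdh 3' signal lay far below the others. The difference was -0.01 (SE 0.11), and 0.10 (SE 0.06, limma adjusted p = 0.67) without anti-IgM NR4 replicate 1, while Hspd1 was at 0.43 (SE 0.07, limma adjusted p = 0.032) without it. The part of RNA quality in the Hspe1 value was not tested further, and the difference between the 2 genes was not tested.

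Of the 42 genes, Hspa1a, Hspb1 and Hspa1b varied the most among arrays of the same group, while the other heat-inducible genes Hsph1, Dnajb1 and Hsp90aa1 had SDs of 0.22, 0.13 and 0.12. Hspa1a, an inducible HSP70, had a pooled SD within groups of 0.54, and 98.6% of all genes had the same or a lower one. For Hspb1, the small chaperone HSP27, the SD was 0.52 (98.1%), and for Hspa1b 0.38 (92.3%). The median was 0.15 over the 42 genes and 0.18 over all genes. Hspa1a and Hspa1b have nearly identical coding sequences, so their probe sets may not separate them and they are not independent.

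In unstimulated cells Hspa1a was at 0.46, -0.18 and 0.00 in NOD and -0.18, -0.02 and 1.08 in NR4, and in stimulated cells at 0.65 and -0.36 in NOD and 0.77, 0.00 and 0.74 in NR4. Hspa1b was at -0.04, -0.14 and -0.07 against 0.42 and -0.04 in NOD and at -0.13, 0.01 and 0.44 against 0.39, -0.59 and 0.47 in NR4. High arrays of both genes were stimulated NOD replicate 1, NR4 replicate 3 in both conditions and stimulated NR4 replicate 1. Conditions overlapped in each gene, except for Hspa1b in NOD, where the lowest stimulated array equalled the highest unstimulated one at the printed precision, and the differences were 0.13 (SE 0.28) for Hspa1a and 0.13 (SE 0.20) for Hspa1b.

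Hspb1 was high in the arrays numbered 1, at 0.59 and 0.89 in NOD and 0.40 and 0.44 in NR4 (unstimulated and stimulated in turn), and in stimulated NR4 replicate 2 at 0.58. The other 6 arrays lay between -0.50 and -0.01. Its difference was 0.25 (SE 0.27), and 0.17 (SE 0.17) with the replicate number as a block. The other cytosolic chaperones did not pass, with Hspa8 (the constitutive HSC70) at 0.07 (SE 0.07), Hsp90aa1, the inducible form of cytosolic HSP90, at 0.14 (SE 0.08, limma adjusted p = 0.64), and the HSP40 co-chaperones Dnaja1 at 0.09 (SE 0.07) and Dnajb1, which is also heat-inducible, at 0.05 (SE 0.09). Hsph1, the HSP110 exchange factor, differed by 0.11 (SE 0.13).

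**Figure D4:**
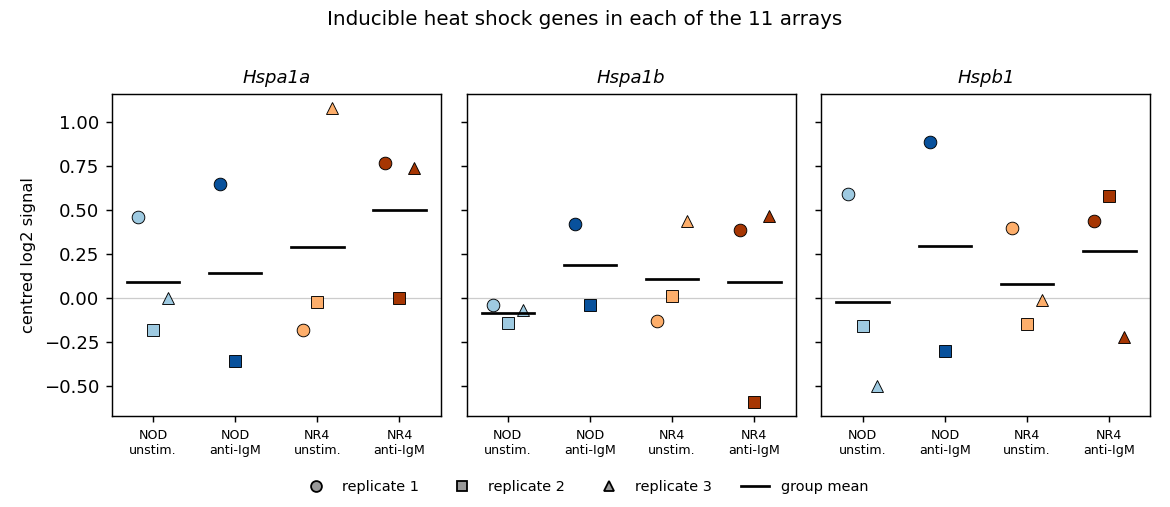
Centred log2 signal (y axis) of Hspa1a, Hspa1b and Hspb1 in each array (x axis, the 4 groups; marker shape gives the replicate number and the line the group mean). For Hspa1a the unstimulated NR4 arrays run from -0.18 to 1.08 and the stimulated NOD arrays from -0.36 to 0.65, and conditions overlap; for Hspb1 the circles of replicate 1 lie between 0.40 and 0.89.

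Promoter sequence was set beside these responses because ATF4, the ER stress factors and heat shock factors bind known DNA elements. Windows from 250 bases before the start to 50 after it were available in RefSeq (GRCm38.p6) for 37 of the 43 genes and were searched on both strands, together with 32851 windows of all 27025 genes. The ATF4 element (CARE, searched as TGATGNAA) was in windows of Asns, Chac1, Herpud1, Slc7a11 and Trib3 and in 3.97% of all windows, or 4.51% of all genes. The ER stress element (ERSE, CCAAT and CCACG with any 9 bases between them) was in Calr, Canx, Creld2, Dnajc3, Hsp90b1, Hspa5 and Pdia6 (0.119% of windows, 0.137% of genes), and its second form (ERSE-II, ATTGG and CCACG with any 1 base between them) in Herpud1 (0.0365% and 0.0444%). The heat shock element (HSE, GAA, TTC and GAA with any 2 bases between neighbours) was in Hspd1, Hspe1 and Hsph1 (0.603% and 0.662%), and the E-box CACGTG in Calr, Dnajb9, Hspd1 and Hsph1 (7.15% and 8.09%). The element TGACGTGG (UPRE) was in 0 of the 37 genes and in 0.676% of all windows, or 0.714% of all genes.

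Of the 12 genes with a CARE or an ERSE of either form, 0 passed the averaged test, where 0.715% of all genes rose and 0.841% fell. At such shares 0 of 12 says little about these genes. Of the 5 genes that rose, Hspd1 and Dnajb9 had a match, and the windows of Slc3a2, Ppp1r15a and Atf4 held none of these letters. A match is a description and not evidence of binding, and the lack of one does not show that a gene lacks an element. The search took exact letters in short windows, and it found no HSE in Hspa1a, Hspa1b or Hspb1 either. The stretches below show the elements of genes that stayed under the threshold, then the E-box of Dnajb9 and the heat shock elements between Hspe1 and Hspd1; capitals mark the matches, and each is read 5' to 3' on the strand of the gene.
Asns (chr6:7693210-7693259, minus strand, CARE): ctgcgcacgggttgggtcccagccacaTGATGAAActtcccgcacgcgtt
Slc7a11 (chr3:50443644-50443693, minus strand, CARE on both strands): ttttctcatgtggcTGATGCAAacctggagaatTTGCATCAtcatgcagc
Herpud1 (chr8:94386304-94386393, plus strand, CARE then ERSE-II): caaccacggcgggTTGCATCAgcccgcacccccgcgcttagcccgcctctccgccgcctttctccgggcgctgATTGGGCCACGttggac
Hspa5 (chr2:34772005-34772054, plus strand, ERSE): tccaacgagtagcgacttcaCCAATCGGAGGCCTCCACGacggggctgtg
Hsp90b1 (chr10:86705525-86705664, minus strand, ERSE on each strand): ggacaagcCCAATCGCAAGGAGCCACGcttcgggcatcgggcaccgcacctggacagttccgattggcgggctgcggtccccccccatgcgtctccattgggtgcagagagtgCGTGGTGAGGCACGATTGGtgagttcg
Dnajb9 (chr12:44210149-44210198, minus strand, E-box): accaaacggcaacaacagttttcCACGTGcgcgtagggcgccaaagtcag
Hspe1 (chr1:55088053-55088082, plus strand, overlapping HSE on both strands): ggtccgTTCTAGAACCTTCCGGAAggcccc

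The genes with an ERSE of either form had differences between -0.12 (Dnajc3) and 0.21 (Hspa5). The CARE genes lay between -0.03 (Slc7a11) and 0.27 (Chac1). The heat shock element genes were Hspd1 at 0.44, Hsph1 at 0.11 and Hspe1 at -0.01, the last pair not past the threshold.

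Other genes of these pathways were taken from lists written by function. Of 28 further ER stress genes Atf3, a transcription factor induced by stress and by antigen receptors, rose by 1.12 (SE 0.10, limma adjusted p = 0.00066) and 27 did not pass, with a median of 0.02. Xbp1, the factor spliced by IRE1, was among the 27 at 0.17 (SE 0.07). Of 19 further heat shock genes 0 passed (median 0.03, lowest unadjusted p in Hspa9 at 0.17, SE 0.07), and 2 reached an unadjusted p under 0.05. Of 29 further amino acid genes 0 passed, with a median of 0.12 and 23 positive differences. Nearest there were Mthfd1, a one-carbon enzyme, at 0.29 (SE 0.09, limma adjusted p = 0.21), the glutamine carrier Slc38a1 at 0.24 and the alanyl-tRNA synthetase Aars at 0.23.

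The second comparison looked at the response in each strain. In NR4 alone 0 of the 42 genes passed the test without a block, where 0.165% of all genes rose and 0.247% fell. Arrays of NR4 with the same replicate number deviated together, and with that number as a block 4 genes rose, where 0.451% of all genes did. These were Ppp1r15a by 0.88 (SE 0.12, limma adjusted p = 0.016), Slc3a2 by 0.74 (SE 0.11, limma adjusted p = 0.024), Mthfd2 by 0.53 (SE 0.09, limma adjusted p = 0.032) and Hspd1 by 0.49 (SE 0.09, limma adjusted p = 0.044). At an unadjusted p under 0.05 without the block there were 11 of 42, against 9.63% of all genes.

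In NOD alone, with 2 stimulated arrays, 0 of the 42 passed by limma with or without the block. Without it 0.0989% of all genes rose and 0.0165% fell, and with it 0.198% rose. With the replicate number within strain as a random block 1 of the 42, Slc3a2, rose in NOD (0.341% of all genes) and 5 in NR4 (0.671%). The unadjusted p was under 0.05 for 6 of the 42, against 5.15% of all genes. Slc3a2 was nearest at 0.73 (SE 0.16, limma adjusted p = 0.18), followed by Dnajb9 at 0.38 (SE 0.10) and Hspd1 at 0.39 (SE 0.11).

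The interaction, which asks whether the strains respond differently, was passed by 0 of the 42 genes and by 0% of all genes (limma); 1 of the 42 had an unadjusted p under 0.05, against 1.40% of all genes. The responses of Slc3a2 differed between strains by -0.01 (SE 0.21), NOD minus NR4, those of Hspd1 by -0.10 (SE 0.14) and those of Ppp1r15a by -0.22 (SE 0.27). These errors leave room for sizeable differences in either direction. The smallest unadjusted p belonged to Chac1 (-0.73, SE 0.32) and Mthfd2 (-0.40, SE 0.18), each with a limma adjusted p of 1. Chac1 was at -0.26, 0.05 and 0.13 in unstimulated and -0.17 and -0.07 in stimulated NOD cells, and at 0.00, -0.10 and -0.29 in unstimulated and 1.06, 0.09 and 0.37 in stimulated NR4 cells. Its stimulated NR4 arrays were all above the unstimulated ones, and the highest was again replicate 1; without it the interaction was -0.46 (SE 0.21).

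**Figure D5:**
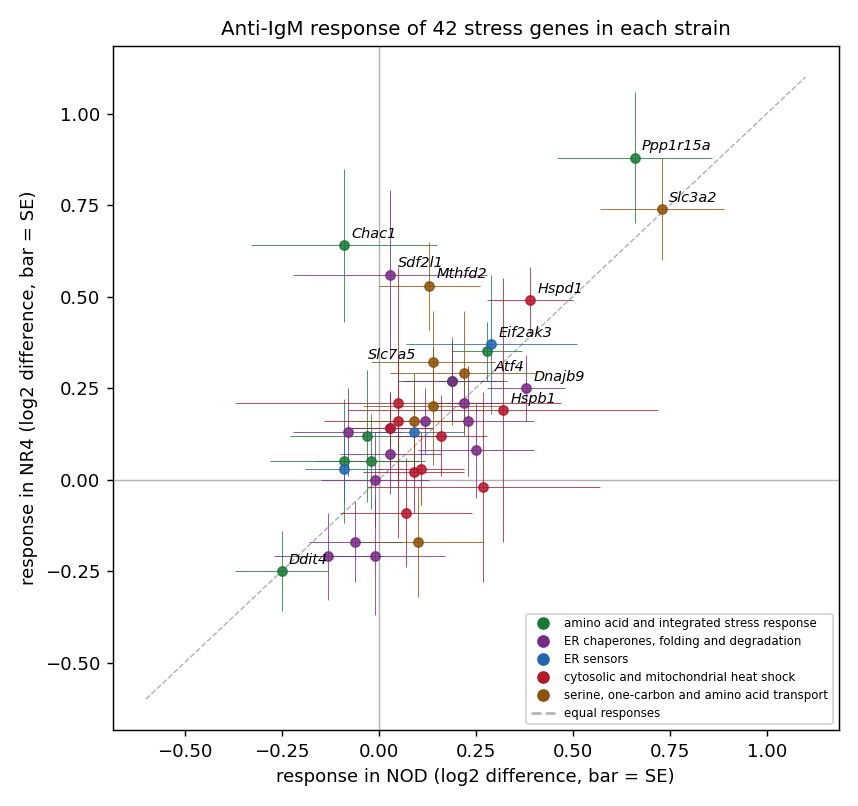
Response to anti-IgM in NOD (x axis) and in NR4 (y axis) for the 42 genes, in log2 units with SE as bars, coloured by role; the dashed line marks equal responses. Slc3a2 lies on the line at 0.73 and 0.74, while Chac1 (-0.09 and 0.64), Sdf2l1 (0.03 and 0.56) and Mthfd2 (0.13 and 0.53) lie above it, none of them past the interaction test.

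The third comparison set NOD against NR4. In the average over both conditions 0 of the 42 genes passed by limma, where 0.121% of all genes did. At an unadjusted p under 0.05 there were 2 of 42, against 4.39% of all genes. These were Hsp90b1 at -0.20 (SE 0.07, limma adjusted p = 0.97) and Calr at -0.15 (SE 0.07, limma adjusted p = 1). This fit counts arrays that share a lot as independent. With the replicate number within strain as a random block 493 of all 18193 genes had an unadjusted p under 0.05 (limma), against 799 without it. Hsp90b1 was at -0.27, -0.09 and 0.03 in unstimulated and -0.07 and -0.08 in stimulated NOD cells, and at -0.06, 0.06 and 0.11 and then 0.14, 0.22 and 0.18 in the NR4 cells. The strains overlapped in unstimulated cells and not in stimulated ones. Calr was at -0.12, -0.15 and -0.10 and then 0.00 and 0.00 in NOD, and at 0.03, 0.07 and -0.06 and then 0.31, 0.14 and 0.06 in NR4. Every NOD array of Calr lay below every NR4 array of the same condition. The share of all genes with such separations of the strains was not computed.

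Of the 14 ER chaperone and folding genes 11 had lower means in NOD, with a median of -0.07 against 0.00 for all genes, of which 50.6% had a higher mean in NOD. The 42 genes together leaned the same way, with 29 lower in NOD and a median of -0.02. Lower were 3 of 3 sensors and 7 of 10 heat shock genes. In the amino acid and integrated stress group 4 of 8 were lower, and in the amino acid supply group 4 of 7. Sdf2l1 was at -0.36 (SE 0.17) and Creld2 at -0.19 (SE 0.09), neither past the threshold. Of 8 markers of plasma cells, which are rich in ER, 0 passed the strain test by limma, and 4 reached an unadjusted p under 0.05. Of their differences 7 were negative, with a median of -0.18, from -0.34 for Derl3 to 0.06 for Irf4; Xbp1 and Derl3 also stand in the further ER stress list. Their mean centred value per array was -0.13 to -0.10 in unstimulated NOD and 0.00 to 0.04 in unstimulated NR4 cells. In stimulated cells it was -0.04 to 0.03 in NOD and 0.12 to 0.27 in NR4. Plasma cells were not alone in this. A limma unadjusted p under 0.05 was also reached by 4 of 7 T cell markers (-0.72 to 1.02). It was reached by 2 of 3 endothelial markers (median -0.22) and 1 of 6 NK and cytotoxic markers (median 0.34). Of monocyte and macrophage markers 1 of 7 reached it, and of dendritic cell markers 1 of 4. Of B cell, neutrophil, red cell precursor and fibroblast markers 0 of 8, 0 of 5, 0 of 3 and 0 of 4 did. The part of plasma cells in the ER values was not tested, and in bulk RNA fewer cells of a type and less RNA per cell cannot be told apart. In the strain comparisons within unstimulated and within stimulated cells 0 of 42 genes passed by limma, where 0.0605% and 0.0495% of all genes did in either direction; 1 and 3 of the 42 had an unadjusted p under 0.05, against 1.54% and 4.34% of all genes.

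With each array left out in turn, 0 to 5 genes passed in the averaged response, and directions of the 5 genes did not change. Slc3a2 passed in 10 of 11 such fits and not without anti-IgM NOD replicate 2 (0.73, limma adjusted p = 0.056), where none of the 42 passed. Hspd1 passed in 8 and not without unstimulated NOD replicate 2 (0.42), anti-IgM NOD replicate 1 (0.41) or anti-IgM NOD replicate 2 (0.47). Without either of the first pair of these arrays only Slc3a2 passed. Ppp1r15a passed in 5 and was lost without NOD unstimulated replicate 2 or 3 (0.73 each), anti-IgM NOD replicate 1 (0.74) or 2 (0.80), or unstimulated NR4 replicate 2 (0.79) or 3 (0.71). Atf4 passed in 1, without anti-IgM NR4 replicate 2 (0.33, limma adjusted p = 0.041), where Mthfd2 passed too (0.39, limma adjusted p = 0.044). Dnajb9 passed in 0, with differences of 0.28 to 0.35. With 1 array of a group of 3 left out, 55 to 136 of all 18193 genes rose, against 130 with all arrays. Anti-IgM NR4 replicate 1 was the array with the raised actin and Gapdh 3' signal. Without it Hspd1, Ppp1r15a (0.68, limma adjusted p = 0.036) and Slc3a2 (0.68, limma adjusted p = 0.019) rose, where 0.605% of all genes did. Among genes that did not pass, leaving out that array moved Chac1 from 0.27 to 0.13, Phgdh from 0.25 to 0.16, Shmt2 from 0.17 to 0.09, Slc7a5 from 0.23 to 0.15 and Edem1 from 0.16 to 0.24, and none of these passed without it.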

How the data were processed

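Per the submitters' processing notes, the deposited values were made with RMA, which corrects background, normalizes by quantiles and summarises probe sets. They were read as log2 values, although neither the deposited table nor the notes state the base. All 45101 probe sets have a median of 0 across the 11 arrays; no header or label gives the software version or describes this centring. Probe sets naming 1 gene (34945) were used, and 932 naming several genes (2 of them naming Phgdh), 9160 naming none and 64 controls were left out. Several probe sets of a gene were combined by their median on each array, which gave 18193 genes.

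A linear model with 4 group means was fitted to all 11 arrays with limma 3.58.1 in R 4.3.3, with empirical Bayes moderation (7 residual degrees of freedom) and two-sided tests. P-values were adjusted by Benjamini-Hochberg over all genes in each of 7 comparisons. Groups come from the sample titles, which call the arrays biological replicates; precision is limited by how few arrays there are. The members and lists were chosen with earlier results of these data known. By rule, members that passed, the 2 sensors with the smallest p, and the 2 members with the smallest p for strain and for interaction were described in full, the other members by their difference, and genes of the further lists where they passed; further genes and arrays were singled out after their values were seen. Symbols were matched to RefSeq (GRCm38.p6) by Entrez identifier for 99.4% of probe sets. The fit was tested on simulated data.

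Pairing by replicate number was checked by the correlation of deviations from group means. It was 0.329, 0.219 and 0.473 between unstimulated and stimulated NR4, 0.59, 0.207 and 0.512 between unstimulated NOD and NR4, and 0.629 and 0.118 in NOD, with 2 pairs only. Stimulated NOD against stimulated NR4 gave 0.366 and -0.121, so the numbers do not pair all groups, and no label ties a number to a lot. Anti-IgM NOD replicate 2 deviated more with the arrays numbered 3 (0.58 in unstimulated NOD, 0.436 and 0.504 in unstimulated and stimulated NR4). With those numbered 2 the values were 0.118, 0.164 and -0.121. The 2 stimulated NOD arrays deviate from their mean as mirror images, which limits this check. Both blocks placed anti-IgM NOD replicate 2 with number 2, and a block with number 3 was not run. Alternatives were the replicate block, the replicate number within strain as a random block, other summaries of probe sets, quantile normalization, replicates 1 and 2 only, and each array left out.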

Additional observations from a re-analysis of the deposited data

Results flagged for a closer look

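In Chac1 and Atf6 every stimulated array lay on one side of the mean of its unstimulated cells in NOD and on the other side in NR4. The share of all genes with this pattern was not computed. For Chac1 the mean response was -0.09 in NOD and 0.64 in NR4, and for Atf6 it was -0.09 in NOD and 0.03 in NR4. Neither passed the interaction test (limma adjusted p = 1 for each), with -0.73 (SE 0.32) for Chac1 and -0.13 (SE 0.14) for Atf6. Both responses of Atf6 lay within 1 SE of 0.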

How the results depend on the processing

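The count of 5 genes in the averaged response was 6 with the replicate block, 7 with the replicate number within strain as a random block and 4 after quantile normalization. It was 3 with the mean of the probe sets, 3 with each probe set alone, 2 with probe sets free of shared-transcript suffixes, 0 with replicates 1 and 2 only, and 0 to 5 with each array left out. Over all 18193 genes 130 rose in the main fit and 158 after quantile normalization. It was 133 with the mean of the probe sets and 35 with replicates 1 and 2 only. Of single probe sets 197 of 34945 rose, and with suffix-free probe sets 105 of 16591 genes. Genes with only suffixed probe sets, Slc3a2 among them, drop out of that last count. In NR4 the count of 0 became 4 with the replicate block and 5 with the random block, and in NOD it became 1 with the random block. The block changed no other count of these genes. Differences of the 5 genes kept their sign under each alternative run, 18 for each gene and 17 for Slc3a2, whose probe set has such a suffix. Slc3a2 passed in 15 (0.67 to 0.81), Hspd1 in 14 (0.41 to 0.48), Ppp1r15a in 11 (0.68 to 0.85), Atf4 in 4 (0.21 to 0.34) and Dnajb9 in 2 (0.28 to 0.36). The cause of these changes was not tested. Strain comparisons and the interaction gave 0 genes under every alternative run (limma). The values hold no levels or detection calls, so how far each gene lay above background is unknown here.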
